A study of Mus musculus with 9 samples.

Results

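Interferon response genes and genes of the major histocompatibility complex (MHC) were followed in F9 cells, a mouse embryonal carcinoma line, after retinoic acid (RA) or trichostatin A (TSA). Members were the probe sets whose only gene symbol in the platform annotation begins with H2-, Ifi (Ifit and Ifitm included), Isg, Oas, Irf plus a number or Stat plus a number, or is Tap1, Tap2, Tapbp or B2m, without the Irf2bp genes. The rule used names and no measured value, but it was chosen with earlier results of these data known. It gave 84 of 12422 probe sets, or 65 of 8251 genes. Of the 65 genes, 31 lie on chromosome 17, all of the H2- genes and the Tap genes among them, and 14 genes had several probe sets. A further 14 probe sets carried several symbols of which at least 1 begins in this way, and they were left out. The members fell into 24 probe sets of class I heavy chains, 1 of the class I light chain, 6 of class I peptide loading, 12 of class II, 23 of interferon-induced proteins, 9 of Irf and 7 of Stat factors, and 2 of H2-Ke6, a gene with an H2- name that encodes an enzyme and no MHC chain.

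Each of the 3 groups had 3 arrays: cells given RA at 0.5 µM, cells given TSA at 0.07 µM, and cells given the ethanol vehicle, all for 24 h. RA is a ligand of nuclear receptors under which F9 cells leave the undifferentiated state, and TSA inhibits histone deacetylases. All groups are the same line. A level here is the sum over a whole culture, in which fewer cells of a type cannot be told apart from less RNA per cell. Whether replicates came from separate cultures is not in the labels. The p-values thus measure only how far these arrays scatter, and that scatter may be technical.

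The deposited value of a probe set on an array is its linear ratio to the mean of the 3 vehicle arrays, so vehicle averages 1 by construction and no level can be set against that of another probe set. Brightness is unknown, and high ratios may stand on a faint vehicle signal. Array medians lay between 0.821 and 1.02. The 3 control probe sets of 18S rRNA had medians of 0.961 on RA replicate 3, 2.4 on vehicle replicate 3 and 0.538 on vehicle replicate 1, against 0.0336 to 0.073 on the remaining 6 arrays. Markers of undifferentiated cells (7 of 7 listed genes, 9 probe sets) summed to ratios of 3.92 to 4.19 on RA arrays, 5.15 to 5.81 on TSA arrays and 8.26 to 9.5 on vehicle arrays.

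Class I MHC molecules carry peptides from inside the cell to its surface. They consist of a polymorphic heavy chain and the light chain encoded by B2m, and they are loaded by the Tap transporter with the help of tapasin. Class II molecules present peptides from the endosomal route and belong mainly to immune cells. Interferons act through Jak kinases and Stat factors, and Irf9 is the DNA-binding part of a complex that recognises the interferon-stimulated response element (ISRE) in target promoters. Embryonal carcinoma cells are known for low class I expression and weak interferon responses, which both increase on differentiation.

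Promoter sequences are shown for 6 members described below: the class I genes B2m, H2-K1 and H2-D1, the interferon-induced Isg15, and Irf1 and Ifit1. Of these, B2m, Irf1 and Ifit1 were not called changed in any comparison. They are RefSeq windows of the GRCm38.p6 assembly, from 250 bases before to 50 bases after the annotated gene start, printed 5′ to 3′ on the gene's strand. Capitals mark every match, on either strand, to the ISRE core (GAAA, then any 2 bases, then GAAA), to the Stat dimer element GAS as TTCNNNGAA, or to the kappa B motif bound by NF-kappa B. The windows were B2m at chr2:122147437-122147736 (plus strand), H2-K1 at chr17:34000284-34000583 (minus), H2-D1 at chr17:35262844-35263143 (plus), Isg15 at chr4:156200769-156201068 (minus), Irf1 at chr11:53769764-53770063 (plus) and Ifit1 at chr19:34640639-34640938 (plus).
B2m: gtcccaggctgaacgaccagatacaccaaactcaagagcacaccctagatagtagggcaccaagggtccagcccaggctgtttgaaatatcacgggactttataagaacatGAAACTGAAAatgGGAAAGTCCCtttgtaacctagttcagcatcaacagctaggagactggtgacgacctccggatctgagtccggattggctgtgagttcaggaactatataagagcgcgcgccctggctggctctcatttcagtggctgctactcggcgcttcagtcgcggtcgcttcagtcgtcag
H2-K1: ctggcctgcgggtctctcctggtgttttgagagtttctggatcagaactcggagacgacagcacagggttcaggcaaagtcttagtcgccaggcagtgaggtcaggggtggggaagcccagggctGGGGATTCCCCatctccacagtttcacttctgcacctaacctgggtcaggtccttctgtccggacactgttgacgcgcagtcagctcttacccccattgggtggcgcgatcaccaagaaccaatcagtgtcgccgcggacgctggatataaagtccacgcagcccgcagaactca
H2-D1: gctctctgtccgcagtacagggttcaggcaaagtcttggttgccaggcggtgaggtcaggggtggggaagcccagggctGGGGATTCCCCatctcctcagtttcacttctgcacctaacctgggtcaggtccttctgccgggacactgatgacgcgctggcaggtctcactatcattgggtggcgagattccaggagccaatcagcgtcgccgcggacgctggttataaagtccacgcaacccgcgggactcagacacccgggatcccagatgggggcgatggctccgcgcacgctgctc
Isg15: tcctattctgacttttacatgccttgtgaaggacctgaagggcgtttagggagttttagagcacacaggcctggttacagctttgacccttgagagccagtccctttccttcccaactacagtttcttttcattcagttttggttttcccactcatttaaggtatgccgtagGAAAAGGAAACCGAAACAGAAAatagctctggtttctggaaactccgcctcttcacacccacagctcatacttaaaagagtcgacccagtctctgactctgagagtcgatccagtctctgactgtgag
Irf1: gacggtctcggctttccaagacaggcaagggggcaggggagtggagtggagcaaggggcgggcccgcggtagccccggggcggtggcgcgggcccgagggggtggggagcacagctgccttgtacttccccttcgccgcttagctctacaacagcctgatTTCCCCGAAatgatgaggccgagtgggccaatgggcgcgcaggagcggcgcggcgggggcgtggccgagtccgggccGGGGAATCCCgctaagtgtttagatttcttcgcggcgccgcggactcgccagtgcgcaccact
Ifit1: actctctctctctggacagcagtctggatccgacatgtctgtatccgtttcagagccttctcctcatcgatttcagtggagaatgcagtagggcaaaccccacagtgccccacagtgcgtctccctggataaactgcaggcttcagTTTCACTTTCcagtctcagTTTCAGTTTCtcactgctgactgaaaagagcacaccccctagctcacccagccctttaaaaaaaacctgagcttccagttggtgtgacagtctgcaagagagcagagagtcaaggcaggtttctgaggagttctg

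The B2m window held an ISRE core from 139 to 130 bases before the start and a kappa B match from 126 to 117 bases before it, with no overlap. In H2-K1 and H2-D1 the capitals are 2 kappa B matches that overlap, shifted by 1 base, 125 to 115 bases before the start of H2-K1 and 171 to 161 before that of H2-D1. Isg15 had 3 ISRE cores that share bases, between 78 and 57 bases before the start. Ifit1 had 2 separate ISRE cores, and Irf1 a GAS and a kappa B match. H2-K1 and Irf1 had 2 windows each. The Irf1 window was printed for its matches, and the other held none. Both H2-K1 windows held 2 kappa B matches. Of the 65 member genes, 51 had a window in the table, 65 windows in all. ISRE cores were in 15.4% of member windows and 3.44% of all 32851 windows, GAS in 15.4% and 8.3%, and kappa B in 23.1% and 8.46%. A match describes letters only, and a window without one says nothing about binding. The patterns were exact, so an interferon element that departs from these letters was neither marked nor counted.

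Changes were tested with limma on log2(ratio + 0.05) over all 12422 probe sets, and a probe set was called changed at a Benjamini-Hochberg adjusted p under 0.05. In TSA against vehicle 13 of the 84 member probe sets rose, from 10 genes, and none fell. That is 15.5% of members, against 3.48% of all probe sets called (2.21% higher and 1.27% lower). The rises were 10 class I heavy chain probe sets and those of H2-DMa, Isg15 and Irf8. In RA against vehicle 4 rose, H2-K1, H2-D4, H2-Q5 and H2-DMa, and none fell, which is 4.76% of members against 1.36% of all probe sets (0.934% higher and 0.427% lower). Between RA and TSA 1 member differed, H2-K1, lower in RA. This 1.19% of members compares with 3.91% of all probe sets (1.7% higher and 2.21% lower). At an unadjusted p under 0.05, limma had 12 members higher and 2 lower in RA, 21 higher and 2 lower in TSA, and 3 higher and 15 lower in RA against TSA. Over all probe sets the unadjusted shares were 4.64% higher and 8.03% lower in RA (12.7% in all), 7.41% higher and 12.2% lower in TSA (19.6% in all), and for RA against TSA 8.36% higher and 8.69% lower (17.1% in all).

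Groups whose arrays did not overlap were counted too. The RA arrays stood wholly above vehicle in 13 members and wholly below in 4, which is 15.5% and 4.76% of members against 5.93% and 11% of all probe sets. For TSA these were 22 and 2 members, or 26.2% and 2.38% against 9.26% and 17.1%. RA lay wholly above TSA in 6 members and wholly below in 19, or 7.14% and 22.6% against 13.8% and 13.5%.

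The RA and TSA comparisons share the vehicle arrays, and 12 of the 24 class I heavy chain probe sets are of a kind whose probes match several family members, so these counts are not counts of independent events. The median log2 change of the members was 0.04 in RA and 0.06 in TSA, with all probe sets at -0.12 and -0.17. Bringing the array medians to 1 moved the median of all probe sets to 0.03 in both comparisons, and then 5 members passed in RA and 14 in TSA, all higher, with 1.49% and 3.73% of all probe sets called.

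The number of calls, in members and over all probe sets, depended on single arrays. In TSA the member count was 2 without TSA replicate 2 (0.861% of all probe sets called), 3 without TSA replicate 3 (1.3%) and 4 without vehicle replicate 2 (1.47%). In RA it was 0 without RA replicate 1 (0.435% of all) or vehicle replicate 2 (0.596%), 1 without RA replicate 2 (0.515%) or 3 (0.684%), and 2 without any 1 TSA replicate (0.877% to 0.966%). Leaving out vehicle replicate 3 and RA replicate 3 together, the arrays highest in 18S signal, gave 0 in RA (0.789% of all) and 7 in TSA (3.22%); this setting was chosen after seeing the data. With quantile normalisation the members still called were H2-DMa and H2-D4 in RA (0.716% of all called) and, in TSA, H2-DMa, H2-D4 and H2-K1 with 2 probe sets (1.16%).

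**Figure D1:**
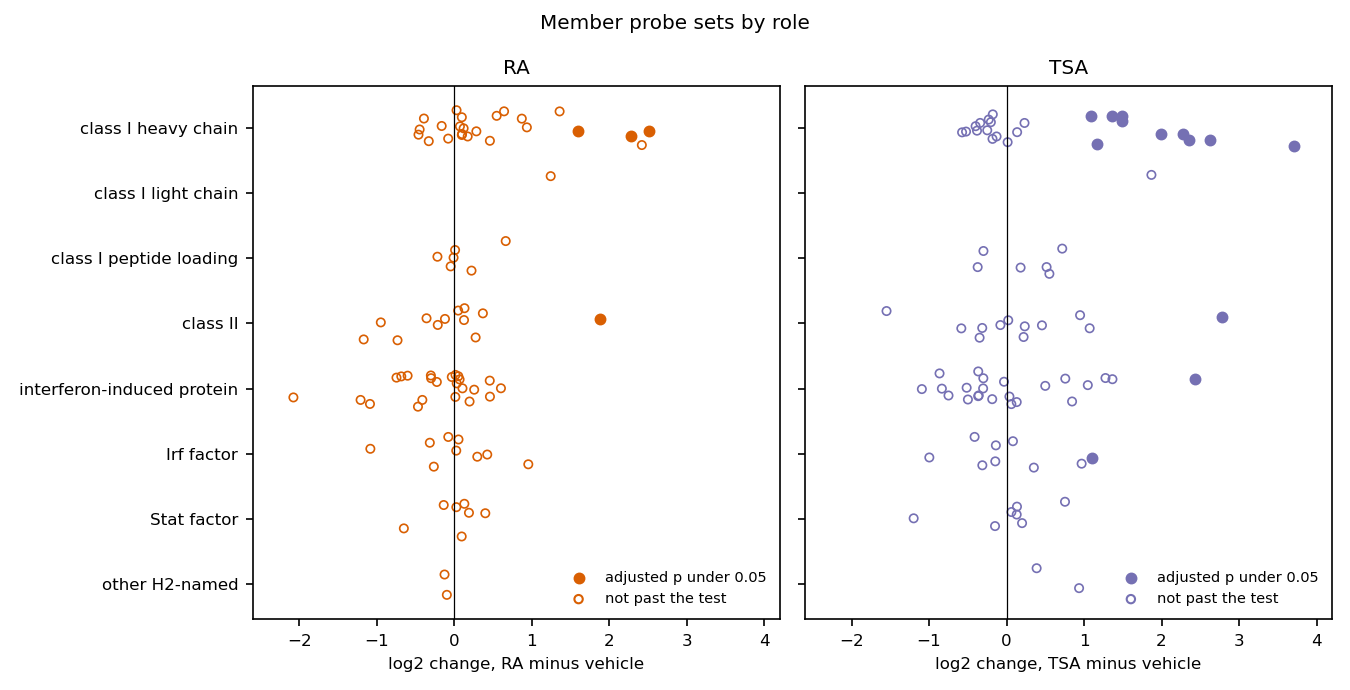
Log2 change of the 84 member probe sets by role, RA minus vehicle on the left and TSA minus vehicle on the right; each point is a probe set, filled where its adjusted p was under 0.05, and its height within a row is random. In TSA the 10 filled class I heavy chain points lie from 1.08 to 3.71, apart from the open ones of that row.

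Class I heavy chains present peptide, H2-K1 and H2-D1 being the classical ones expressed on most cells. In TSA 10 of their 24 probe sets rose (41.7%, against 3.48% of all probe sets called). They carry the names of 7 genes (H2-K1, H2-D1, H2-K2, H2-D4, H2-Q4, H2-Q5 and H2-Bl). The 3 that rose in RA (12.5%, against 1.36% of all) carry those of H2-K1, H2-D4 and H2-Q5. All of these calls were on _f_at probe sets, whose probes match several family members, so they may not be of separate genes. TSA and vehicle arrays did not overlap in 10 of the 24, all higher, and RA and vehicle arrays in 8, all higher; arrays were apart upward in 9.26% and 5.93% of all probe sets.

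H2-K1 had 3 probe sets that did not move alike. Probe set 97125_f_at read 2.89, 3.34 and 2.81 times the vehicle mean on the RA arrays and 4.14, 5.73 and 5.64 on the TSA arrays, against 0.623, 1.26 and 1.12 on the vehicle arrays. No array of either treatment reached down to the vehicle arrays, and every TSA array lay above every RA array. The log2 change was 1.60 ± 0.28 in RA (SE; adjusted p = 0.0338, limma) and 2.35 ± 0.28 in TSA (adjusted p = 0.00541). Probe set 93120_f_at gave 1.47, 1.48 and 1.49 in RA and 2.24, 3.33 and 3.22 in TSA, against 0.959, 1.15 and 0.888 in vehicle. It rose in TSA (1.49 ± 0.21, adjusted p = 0.00981) and had a log2 change of 0.55 in RA that did not pass (adjusted p = 0.322). It is the member that differed between the treatments, by -0.94 in RA against TSA (adjusted p = 0.0465). Probe set 97700_at read 0.82, 1.03 and 0.754 in RA and 0.677, 0.532 and 0.798 in TSA, against 0.67, 1.19 and 1.14 in vehicle. Its groups overlapped, with log2 changes of -0.16 in RA and -0.52 in TSA that did not pass (adjusted p = 0.864 and 0.332).

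The H2-K1 rise of 97125_f_at in TSA held in each of 9 fits that left out 1 array, and that of 93120_f_at in 8 of 9, with an adjusted p of 0.0562 without TSA replicate 2. In RA the call of 97125_f_at held in 2 of 9, namely without vehicle replicate 1 or 3, with adjusted p from 0.0567 to 0.147 in the others. The difference between RA and TSA in 93120_f_at held in 1 of 9, without vehicle replicate 3, with adjusted p from 0.0523 to 0.181 in the others. With its 3 probe sets averaged, H2-K1 was at 0.66 in RA, which did not pass (adjusted p = 0.206), and rose by 1.11 in TSA (adjusted p = 0.0261).

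H2-D1 had 3 probe sets, all ending in _f_at, and all rose in TSA. The largest ratios were in 97541_f_at, with 2.43, 3.58 and 1.55 on RA arrays and 4.74, 7.58 and 5.48 on TSA arrays, against 1.71, 0.615 and 0.678 on vehicle arrays. RA replicate 3 lay below vehicle replicate 1, so the RA and vehicle arrays overlapped, while TSA and vehicle did not. Its log2 change was 1.36 ± 0.44 in RA (adjusted p = 0.225) and 2.63 ± 0.44 in TSA (adjusted p = 0.0174). The other H2-D1 probe sets, 97540_f_at and 101886_f_at, rose in TSA by 1.5 and 1.16 (adjusted p = 0.0214 and 0.0243), with 0.46 and 0.64 in RA, which did not pass. Probe set 97540_f_at had 1.63, 1.4 and 1.16 in RA and 2.04, 3.39 and 3.47 in TSA, against 0.901, 1.2 and 0.899 in vehicle. Probe set 101886_f_at had 1.64, 1.81 and 1.34 in RA and 1.88, 2.75 and 2.33 in TSA, against 1.08, 1.01 and 0.909 in vehicle. In both the TSA arrays lay above all RA and vehicle arrays. With quantile normalisation the change of 97541_f_at in TSA was 2.04 (adjusted p = 0.214). All 3 TSA calls were lost without TSA replicate 2, without TSA replicate 3 and without 1 vehicle array (replicate 1 for 97540_f_at, replicate 2 for the others), with adjusted p from 0.0577 to 0.113.

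H2-D4 is a further class I gene. Its probe set 101653_f_at had 4.52, 5.27 and 7.48 in RA and 3.0, 5.16 and 6.99 in TSA, against 0.867, 0.655 and 1.48 in vehicle. All treated arrays stood above the vehicle arrays, and RA and TSA overlapped. It rose by 2.51 ± 0.39 in RA (adjusted p = 0.0213) and 2.27 ± 0.39 in TSA (adjusted p = 0.0203); the difference of 0.24 between RA and TSA had a 95% interval from -0.66 to 1.13. The RA call was lost without any 1 RA array or without vehicle replicate 1 or 2 (adjusted p from 0.0626 to 0.0918), and the TSA call without TSA replicate 2 or 3 or vehicle replicate 1 or 2 (0.0603 to 0.0966). The second H2-D4 probe set, 101652_i_at, did not pass, at -0.46 in RA and -0.57 in TSA. With both averaged the gene did not pass in RA (1.03, adjusted p = 0.248) or in TSA (0.85, adjusted p = 0.225).

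H2-K2 reached 4.48, 4.76 and 2.21 in RA and 6.83, 8.21 and 12.7 in TSA, against 2.36, 0.262 and 0.374 in vehicle. Vehicle replicate 1 stood far above the other vehicle arrays and overlapped with RA replicate 3. Its TSA change of 3.71 ± 0.71 passed (adjusted p = 0.0304), and the RA change of 2.42 did not (adjusted p = 0.174); without vehicle replicate 1 the RA change was 3.33 (adjusted p = 0.0181). The TSA call held in 2 of 9 fits without 1 array, without RA replicate 3 or vehicle replicate 1, with adjusted p from 0.052 to 0.112 in the others. The TSA change was 4.62 without vehicle replicate 1 and, with quantile normalisation, 2.59 (adjusted p = 0.558).

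H2-Q5 gave 4.34, 4.22 and 4.08 in RA and 3.54, 3.09 and 3.71 in TSA, against 1.92, 0.484 and 0.594 in vehicle, where replicate 1 was the highest, as in H2-K2. Its rises of 2.28 ± 0.43 in RA and 1.99 ± 0.43 in TSA lay close to the threshold (adjusted p = 0.0478 and 0.046), and each held in 1 of 9 fits without 1 array, without vehicle replicate 1. In the others the adjusted p was 0.0857 to 0.166 in RA and 0.0706 to 0.145 in TSA.

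H2-Q4 had 2.22, 1.84 and 1.57 in RA and 2.13, 3.2 and 2.68 in TSA, against 1.12, 1.06 and 0.815 in vehicle. H2-Bl had 2.09, 1.86 and 1.92 in RA and 1.8, 2.52 and 2.25 in TSA, against 1.08, 1.02 and 0.897 in vehicle. In both genes every treated array exceeded every vehicle array. They rose in TSA by 1.37 and 1.08 (adjusted p = 0.0197 and 0.0221), calls that were lost without TSA replicate 2, TSA replicate 3 or vehicle replicate 2 (adjusted p from 0.0657 to 0.109), and their RA changes of 0.87 and 0.94 did not pass (adjusted p = 0.14 and 0.0616). With array medians brought to 1, H2-Bl also passed in RA (adjusted p = 0.035).

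An ID ending in _f_at marks a probe set whose probes match several members of a gene family, so the gene named on it is uncertain. Of the 24 class I heavy chain probe sets, 12 are of this kind, and of those 12, 3 rose in RA and 10 in TSA. None of the other 12 passed in either comparison, and at an unadjusted p under 0.05 limma had 0 of them in RA and 0 in TSA. Over all probe sets 1.36% were called in RA and 3.48% in TSA, so few calls would be looked for among 12. The unadjusted shares were 12.7% and 19.6%. Their log2 changes ran from -0.46 to 0.29 in RA and from -0.57 to 0.23 in TSA, while the _f_at probe sets had medians of 0.90 in RA and 1.49 in TSA. The other 12 cover the nonclassical genes H2-M1, H2-M2, H2-M3, H2-M9, H2-M10.1, H2-T24 and H2-Q10, besides the H2-K1 and H2-D4 probe sets described above. The _f_at probe sets that did not pass in TSA were those of H2-Q1 (-0.18) and H2-T18 (-0.40).

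**Figure D2:**
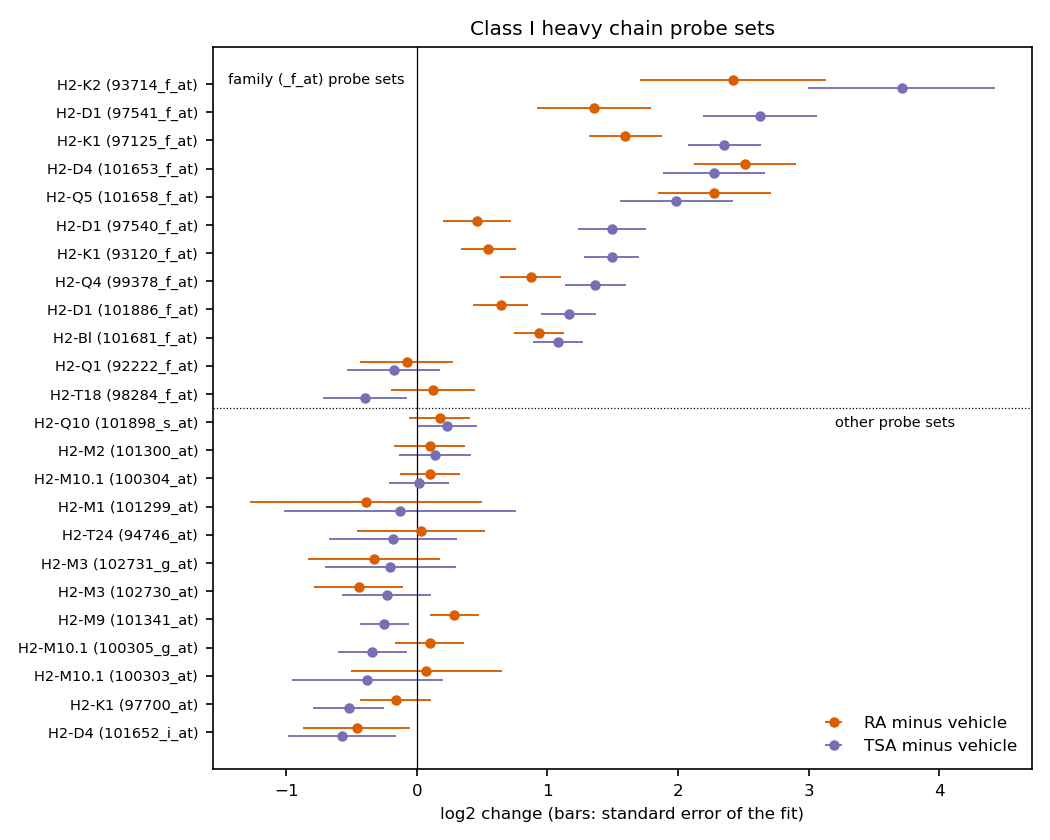
Log2 change of the 24 class I heavy chain probe sets, RA minus vehicle and TSA minus vehicle, with bars for the standard error of the fit; the dotted line parts the 12 _f_at probe sets above from the other 12 below. In TSA 10 _f_at probe sets stand to the right of 1, and the others lie around 0.

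B2m read 2.26, 1.78 and 2.66 in RA and 3.25, 5.61 and 2.21 in TSA, against 1.25, 1.32 and 0.435 in vehicle. All treated arrays were above all vehicle arrays, and TSA replicate 2 was the highest. The log2 changes of 1.25 ± 0.47 in RA and 1.87 ± 0.47 in TSA did not pass (adjusted p = 0.309 and 0.0711).

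None of the 6 peptide-loading probe sets passed, where 1.36% of all probe sets were called in RA and 3.48% in TSA. At an unadjusted p under 0.05 limma had 1 of the 6 in RA and 2 in TSA, against 12.7% and 19.6% of all probe sets. For Tap1, a subunit of the peptide transporter, 103035_at had 1.09, 0.923 and 0.988 in RA and 1.08, 1.04 and 1.29 in TSA, against 0.818, 1.14 and 1.04 in vehicle, all overlapping. Its log2 change in RA was 0.01, with a 95% interval from -0.43 to 0.46, and in TSA 0.18, from -0.26 to 0.63. The second Tap1 probe set, 162278_r_at, had 0.679, 0.908 and 0.894 in RA and 0.912, 0.474 and 0.898 in TSA, against 0.711, 0.886 and 1.4 in vehicle. These groups overlapped too, at -0.22 in RA and -0.37 in TSA. Tap2, the other subunit, had 1.03, 0.657 and 1.04 in RA and 0.805, 2.72 and 1.17 in TSA, against 0.485, 1.18 and 1.33 in vehicle, with log2 changes of -0.05 in RA and 0.55 in TSA.

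Tapasin, the Tapbp product, bridges heavy chains and transporter. Its probe set 102689_at had 1.46, 1.7 and 1.61 in RA and 1.27, 2.0 and 1.76 in TSA, against 0.989, 0.766 and 1.25 in vehicle. Both treatments lay wholly above vehicle, by 0.66 in RA and 0.72 in TSA, and neither passed (adjusted p = 0.295 and 0.155). Probe set 100154_at had 1.15, 1.13 and 1.19 in RA and 1.29, 1.49 and 1.53 in TSA, against 1.2, 1.01 and 0.786 in vehicle. The TSA arrays were above vehicle, with changes of 0.22 in RA and 0.52 in TSA that did not pass. Probe set 162104_f_at had 0.758, 0.983 and 1.29 in RA and 0.692, 0.695 and 1.06 in TSA, against 0.909, 1.16 and 0.927 in vehicle, all overlapping, at -0.01 in RA and -0.30 in TSA.

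**Figure D3:**
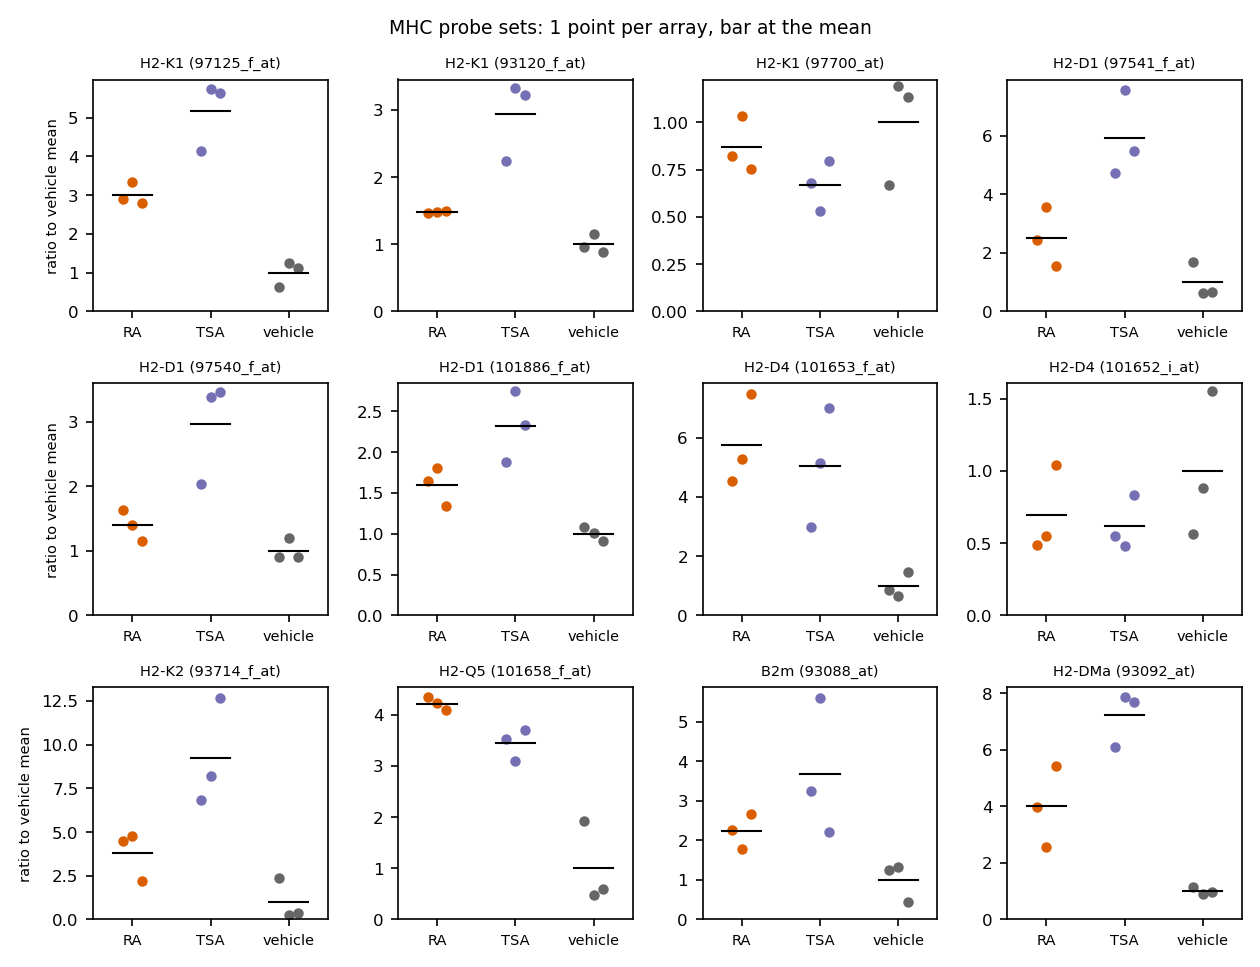
Ratio to the vehicle mean on each array for 12 MHC probe sets, with RA, TSA and vehicle from left to right, a point per array and a bar at the mean of 3; each panel has its own axis from 0. In H2-K1 97125_f_at the TSA arrays lie between 4.14 and 5.73 and the vehicle arrays between 0.623 and 1.26, while 97700_at of the same gene overlaps between groups.

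Of the 12 class II probe sets 1 was called in each treatment (8.33%, against 1.36% of all probe sets in RA and 3.48% in TSA). It belongs to H2-DMa, a chain of the class II-like chaperone that exchanges peptides on class II molecules. Probe set 93092_at had 3.98, 2.57 and 5.43 in RA and 6.1, 7.85 and 7.67 in TSA, against 1.14, 0.895 and 0.968 in vehicle. The 3 groups did not overlap, with TSA highest. It rose by 1.89 ± 0.28 in RA (adjusted p = 0.0178) and by 2.79 ± 0.28 in TSA (adjusted p = 0.00215), and the difference of -0.90 in RA against TSA did not pass (adjusted p = 0.14). The TSA call held in 9 of 9 fits without 1 array and the RA call in 7, with adjusted p of 0.0789 without RA replicate 1 and 0.0794 without vehicle replicate 2. A second H2-DMa probe set, 162346_f_at, was at 0.37 in RA and 0.24 in TSA and did not pass, and with both averaged the gene itself did not pass in RA (1.13, adjusted p = 0.291) or in TSA (1.51, adjusted p = 0.0869).

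Its partner chain was covered by H2-DMb1 (0.13 in RA and -0.08 in TSA) and H2-DMb2 (-0.73 and 0.02). The peptide-binding class II chains H2-Aa (0.28 in RA and 0.22 in TSA) and H2-Ab1 (-0.12 and -0.31) overlapped between groups. H2-Ea, also such a chain, had 0.347, 0.221 and 0.368 in TSA, all under the vehicle arrays at 0.959, 0.842 and 1.2, with RA at 0.259, 1.0 and 0.432. Its TSA change of -1.55 did not pass (adjusted p = 0.0886), and without RA replicate 2, whose fit shares the spread, the adjusted p was 0.0386. H2-Eb2 had 0.341, 0.482 and 0.409 in RA and 0.802, 0.744 and 0.425 in TSA, against 1.31, 0.778 and 0.907 in vehicle. The RA arrays were all under vehicle, with a change of -1.17 (adjusted p = 0.12), and TSA was at -0.58.

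Of the 23 probe sets of interferon-induced proteins, from 21 genes, 1 rose in TSA (4.35%, against 3.48% of all probe sets called) and none changed in RA, where limma had 1 at an unadjusted p under 0.05, against 12.7% of all probe sets. The median was -0.03 in RA and -0.18 in TSA. The rise was Isg15, a ubiquitin-like modifier, with 0.637, 3.05 and 1.33 in RA and 3.92, 7.41 and 5.91 in TSA, against 0.865, 0.99 and 1.15 in vehicle. All TSA arrays exceeded all vehicle and RA arrays, and RA replicate 2 was well above the other RA arrays. It rose by 2.43 ± 0.50 in TSA (adjusted p = 0.0375). Its values of 0.46 in RA (adjusted p = 0.77) and -1.97 in RA against TSA (adjusted p = 0.0731) did not pass. The TSA call held in 2 of 9 fits without 1 array, without RA replicate 1 or 2, with adjusted p from 0.0584 to 0.151 in the others. Without RA replicate 2 the difference between RA and TSA was -2.52 (adjusted p = 0.0286), and with the replicate number as a block its adjusted p was 0.0447.

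The Ifit proteins bind foreign RNA. Ifit1 had 0.374, 0.573 and 0.308 in RA and 0.464, 0.583 and 0.443 in TSA, against 1.63, 0.732 and 0.642 in vehicle. Every treated array was below every vehicle array, and the changes of -1.09 in RA and -0.83 in TSA did not pass (adjusted p = 0.241 and 0.249). Ifit2 was at -0.60 in RA and 0.06 in TSA, and Ifit3 at -0.30 and -1.09.

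The Ifitm proteins restrict virus entry. Their 5 probe sets ran from -0.47 to 0.26 in RA and from -0.37 to 0.13 in TSA. Ifitm3 had 0.758, 0.779 and 0.576 in RA and 0.923, 0.751 and 0.713 in TSA, against 1.26, 0.902 and 0.84 in vehicle; the RA arrays were all below vehicle, with a change of -0.47 (adjusted p = 0.441). Ifitm1, with 0.922, 1.14 and 0.881 in RA and 0.779, 0.671 and 1.13 in TSA, against 0.632, 1.23 and 1.13 in vehicle, overlapped throughout.

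Others of this group had TSA arrays above vehicle without passing. Ifi30, a lysosomal thiol reductase of antigen processing, was at 1.37 (adjusted p = 0.161), Ifi27l2a at 1.28 (adjusted p = 0.121) and Ifi27 at 0.76 (adjusted p = 0.432). In Ifi27 the mean rested on TSA replicate 3, at 4.15 against 1.05 and 1.16 on the other TSA arrays. Ifi202b, a DNA-binding protein of the Ifi200 family, had 0.126, 0.115 and 0.107 in RA, but vehicle spanned 0.109 to 1.75, and its RA change of -2.08, the lowest among members, did not pass (adjusted p = 0.447).

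Among the Irf factors, 1 of 9 probe sets rose in TSA (11.1%, against 3.48% of all) and none in RA, where limma had 0 at an unadjusted p under 0.05 (12.7% of all). Irf8, known from myeloid and B cells, had 1.2, 1.29 and 1.21 in RA and 1.84, 2.78 and 2.06 in TSA, against 0.897, 1.1 and 1.0 in vehicle. The 3 groups did not overlap. It rose by 1.10 ± 0.20 in TSA (adjusted p = 0.026) and was at 0.30 in RA (adjusted p = 0.607); the TSA call was lost without RA replicate 2, any 1 TSA array, or vehicle replicate 1 or 2 (adjusted p from 0.0508 to 0.109). Irf9 had 1.34, 1.23 and 0.626 in RA and 2.11, 1.88 and 2.0 in TSA, against 0.868, 1.05 and 1.08 in vehicle. All TSA arrays exceeded the others, with a change of 0.97 ± 0.28 that did not pass (adjusted p = 0.107) and that passed without RA replicate 3 (adjusted p = 0.0397). The RA change of Irf9 was 0.03.

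Irf1, an activator of class I genes, showed another order. It had 2.0, 2.01 and 1.91 in RA and 1.04, 1.33 and 0.27 in TSA, against 1.17, 0.862 and 0.971 in vehicle. The RA arrays were close to each other and above all others, and TSA replicate 3 was far below the other TSA arrays. The RA change of 0.96 ± 0.48 did not pass (adjusted p = 0.461), nor did the difference of 1.37 between RA and TSA (adjusted p = 0.188). The other Irf probe sets, of Irf3, Irf4, Irf5 and Irf7, ran from -1.08 to 0.43 in RA and from -1.0 to 0.35 in TSA.

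None of the 7 Stat probe sets passed; limma had 0 in RA and 1 in TSA at an unadjusted p under 0.05, against 12.7% and 19.6% of all probe sets. That one was Stat4, a factor of interleukin signalling in lymphocytes, with 1.01, 0.903 and 1.44 in RA and 1.71, 1.74 and 1.71 in TSA, against 0.916, 1.0 and 1.08 in vehicle. Its TSA arrays lay above all others, with a change of 0.75 (adjusted p = 0.0925). Stat5b had 1.67, 0.984 and 1.1 in RA and 0.246, 0.202 and 0.938 in TSA, against 1.37, 0.464 and 1.17 in vehicle, and its change of -1.20 in TSA did not pass (adjusted p = 0.294). Stat3, which transmits the signal of leukemia inhibitory factor, was at 0.10 and 0.19 in RA and 0.14 and 0.20 in TSA for its 2 probe sets.

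**Figure D4:**
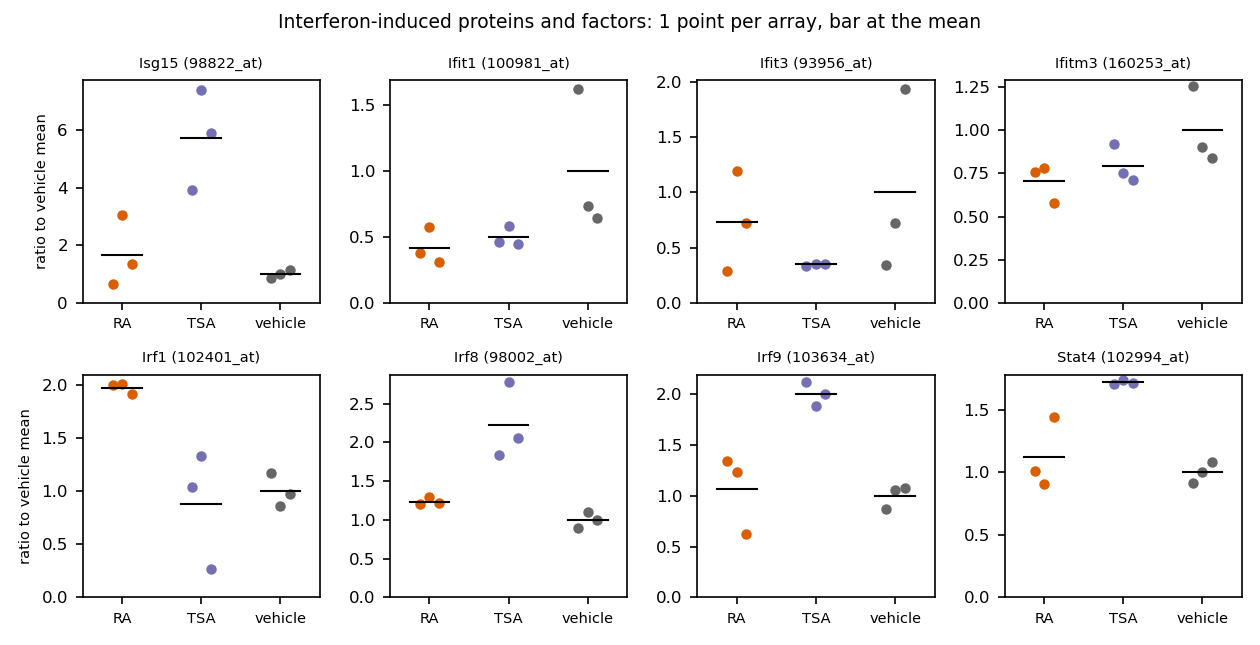
Ratio to the vehicle mean on each array for Isg15, Ifit1, Ifit3, Ifitm3, Irf1, Irf8, Irf9 and Stat4, with RA, TSA and vehicle from left to right, a point per array and a bar at the mean of 3; each axis starts at 0. Isg15 lies between 3.92 and 7.41 in TSA, Irf1 between 1.91 and 2.01 in RA, and Ifit1 under every vehicle array in both treatments.

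The promoter matches were counted beside these changes. Of the 10 member genes with an ISRE core in their window, 1 rose in TSA (Isg15) and 9 did not pass, among them Ifit1, Ifit3, Ifitm3 and B2m. Genes without an exact core, H2-K1 and H2-D1 among them, may still hold an interferon element that departs from it. Of the 10 with a GAS match 1 rose (Irf8), and of the 14 with a kappa B match 3 rose (H2-K1, H2-D1 and H2-Q4). Of the 10 genes that rose in TSA, 6 had a window, among 51 member genes with a window. Over all probe sets 2.21% were called higher in TSA. The H2-K1, H2-D1 and H2-Q4 rises came from _f_at probe sets, whose probes match several family members. A link between motifs and changes was not tested.

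Genes of the same pathways outside the naming rule were taken from a list of 55 names, of which 45 had a probe set with a single symbol, 56 probe sets in all. The list was drawn up with earlier results of these data known, so its shares are no independent check. In TSA 3 of the 56 rose and none fell (5.36%, against 3.48% of all probe sets called). In RA none passed, and limma had 9 at an unadjusted p under 0.05 (16.1%, against 12.7% of all). Between RA and TSA 5 passed, all lower in RA (8.93%, against 3.91% of all probe sets called, 2.21% of them lower). The median was -0.12 in RA and -0.07 in TSA.

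Psmb9, a catalytic subunit of the immunoproteasome encoded beside Tap1 on chromosome 17, had 0.932, 0.944 and 1.13 in RA and 10.3, 15.3 and 12.5 in TSA, against 0.83, 0.907 and 1.26 in vehicle. RA and vehicle overlapped, and TSA stood far above both. It rose by 3.61 ± 0.23 in TSA (adjusted p = 0.000964), was at 0.02 in RA and differed by -3.58 in RA against TSA (adjusted p = 0.000252), calls that held in 9 of 9 fits without 1 array. Usp18, which removes Isg15 from its targets, had 0.676, 0.829 and 0.737 in RA and 3.67, 17 and 27.9 in TSA, against 0.476, 0.863 and 1.66 in vehicle. Its TSA arrays spread widely but lay above all others, with a change of 3.69 ± 0.71 (adjusted p = 0.0299). The call was lost without RA replicate 1 or 2, TSA replicate 2 or 3, or vehicle replicate 1 or 2 (adjusted p from 0.0525 to 0.131). The change was 4.54 without TSA replicate 1 and 3.09 without TSA replicate 3. Cd74, the invariant chain of class II, had 1.3, 1.13 and 1.32 in RA and 2.37, 3.91 and 3.72 in TSA, against 1.05, 1.19 and 0.759 in vehicle. It rose by 1.68 ± 0.26 in TSA (adjusted p = 0.0133), a call lost without TSA replicate 2 (adjusted p = 0.0668) or 3 (0.0546).

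Trim25, a ubiquitin ligase of RNA sensing, had 0.487, 0.42 and 0.314 in RA and 1.59, 2.08 and 1.56 in TSA, against 1.3, 0.896 and 0.801 in vehicle. The groups were ordered without overlap, RA lowest, and RA was lower than TSA by a log2 difference of -1.98 (adjusted p = 0.00574), while neither change from vehicle passed (-1.19 in RA and 0.79 in TSA). Cxcl10, a chemokine induced by interferons, had 0.199, 0.333 and 0.376 in RA and 1.81, 1.14 and 1.76 in TSA, against 0.414, 1.89 and 0.693 in vehicle, and was also lower in RA than in TSA (-2.21, adjusted p = 0.0477). This call held only without vehicle replicate 1 or 2, with adjusted p from 0.058 to 0.157 in the 7 other fits without 1 array. Usp18 and Cd74 were lower in RA than in TSA too, by -3.93 and -1.35 (adjusted p = 0.0207 and 0.0252). Both calls were lost without any 1 RA array and without TSA replicate 2 or 3 (adjusted p from 0.0633 to 0.106). The Usp18 difference was -4.78 without TSA replicate 1 and -3.32 without TSA replicate 3.

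**Figure D5:**
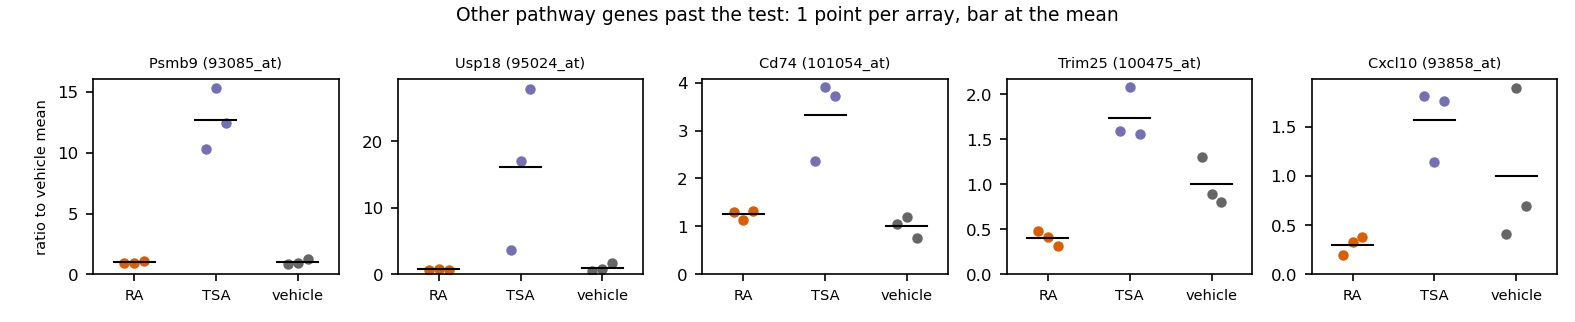
Ratio to the vehicle mean on each array for Psmb9, Usp18, Cd74, Trim25 and Cxcl10, with RA, TSA and vehicle from left to right, a point per array and a bar at the mean of 3; each axis starts at 0. Psmb9 lies between 10.3 and 15.3 in TSA and near 1 in RA and vehicle, and Trim25 is lowest in RA.

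Class I, class II and several Irf genes are also expressed by other cells, so marker lists were summed beside them. Leukocyte markers (18 of 20 listed genes, 26 probe sets) summed to 20.1 to 27.7 on RA arrays, 23.3 to 30.5 on TSA arrays and 19.8 to 36.7 on vehicle arrays, groups that overlap, with vehicle replicate 3 highest. Fibroblast markers (9 of 10 genes, 16 probe sets) summed to 19.6 to 21.1 in RA and 38.5 to 56.9 in TSA, against 11.3 to 22.6 in vehicle. The sums were thus higher in TSA, where 10 of the 24 class I heavy chain probe sets rose and 14 did not pass. A few high markers weigh most in a sum: the mean log2 value of the same list was -0.27 to 0.10 in RA and 0.54 to 0.65 in TSA, against -0.55 to 0.48 in vehicle, where replicate 3 came close to the TSA arrays. Endoderm markers (10 of 10 genes, 16 probe sets) summed to 53.8 to 61.4 in RA and 13.4 to 17.7 in TSA, against 12.3 to 19.4 in vehicle. These are sums of ratios, in which no marker can be read as absent, and the part of other cell types in the results was not tested.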

How the data were processed

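DNase-treated, column-cleaned total RNA was hybridised at a core facility, per the labels, and analysed in GeneSpring. The deposited values are linear ratios. For each of the 12488 probe sets the mean over vehicle arrays was 1 (to within 2e-07), which makes the vehicle mean the base of the authors' ratio. How scans became ratios is not given in the sources used here, and brightness over background cannot be recovered. Groups and replicate numbers came from sample titles.

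The 66 control probe sets were left out. A platform annotation gave 1 symbol for 10833 of the other 12422 probe sets, several for 396 and none for 1193; all 65 member genes matched a GRCm38.p6 RefSeq table by Entrez ID. Array medians differed by 1.24 times, so ratios were used unscaled. Values were analysed as log2(ratio + 0.05), which understates changes of low values, in 1 limma fit (3.58.1, R 4.3.3) over all 9 arrays, with Benjamini-Hochberg adjustment over all probe sets. The procedure was tested on simulated data with independent noise, which does not bear on how the calls depend on single arrays. The number of arrays limits precision.

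Values per array are given for members past the test, for the 10 largest changes without overlap per treatment, and for a fixed set (Irf1, Irf9, Isg15, Ifitm1, Ifitm3, B2m, Tap1, Tap2, Tapbp, H2-K1, H2-D1), 28 probe sets in all, and for list genes past the test. Stat4, Stat5b, Ifi30, Ifi27l2a, Ifi27, Ifi202b, Ifit2 and Ifit3 were added after their values were seen, as were the promoters and motifs shown. Members and lists were chosen with earlier results of these data known. Alternatives were pseudocounts of 0.01 and 0.1, scaling, quantile normalisation, a filter on the lowest 30% by mean, a variance trend, 6-array fits, a replicate block, gene averages and leaving out each array; leaving out vehicle replicate 3 and RA replicate 3, highest in 18S signal, was chosen after seeing the data.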

Additional observations from a re-analysis of the deposited data

How the results depend on the processing

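Of 26 gene results past the test, none changed direction in 18 alternatives on single probe sets, and 5 passed in all of these: H2-DMa and H2-K1 (97125_f_at) in TSA, Psmb9 in TSA and in RA against TSA, and Trim25 in RA against TSA. Averaging per gene, a further alternative, ended the H2-DMa call in TSA (adjusted p = 0.0869). Counts of changed member probe sets (4 in RA, 13 in TSA and 1 in RA against TSA) became 2, 4 and 0 with quantile normalisation (89, 144 and 178 calls over all probe sets, against 169, 432 and 486 as reported), 0, 5 and 0 in fits on 6 arrays (61, 168 and 480), and 2, 8 and 0 of 65 genes with probe sets averaged per gene (150, 371 and 412 of 8251 genes). Under the variance trend 2 passed in RA (111 over all). Without vehicle replicate 3 and RA replicate 3, the arrays highest in 18S signal, 0 passed in RA (98) and 7 in TSA (400). Leaving out 1 array gave 0 to 4 in RA, 2 to 12 in TSA and 0 to 1 between RA and TSA. Causes of these shifts were not tested, beyond fewer arrays or genes entering where the setting says so.

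The labels do not say whether replicate numbers pair the arrays. Correlations of same-numbered deviations ran from -0.0317 to 0.289, not all over 0.1, with 0.19 to 0.289 among the replicate 3 arrays, so the numbers were not used as pairs. With the replicate block 3 passed in RA, 11 in TSA and 1 between them, which was Isg15 and not H2-K1. It lost H2-Q5 in RA (adjusted p = 0.067), H2-K2 (0.0502) and H2-Q5 (0.0542) in TSA, and H2-K1 93120_f_at (0.0575), Cd74 (0.0501) and Cxcl10 (0.07) in RA against TSA.

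Several uncalled changes near 0 crossed it. In RA, scaling array medians gave 0.11 for Tap2 and 0.15 for Tapbp 162104_f_at, which quantile normalisation put at 0.017; without those 18S-high arrays Tap2 was at 0.10 and H2-K1 97700_at at 0.038. In TSA, scaling put Ifitm1 at 0.014. Leaving out 1 array, the RA changes ran from -0.17 to 0.35 for Irf9, -0.10 to 0.99 for Isg15, -0.27 to 0.19 for Ifitm1, -0.48 to 0.21 for Tap2, -0.19 to 0.17 for Tapbp 162104_f_at, -0.12 to 0.11 for Tap1 103035_at and -0.42 to 0.045 for Tap1 162278_r_at. The TSA change of Irf1 ran from -0.82 to 0.24, the last without TSA replicate 3.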
